A study of Homo sapiens with 24 samples.

Results

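The genes described here are the axon guidance ligands and receptors: 57 genes of the 61551 in the count table, chosen by name as the Eph receptors (13), ephrins (8), semaphorins (13), plexins (8), neuropilins (2), slits (3), robos (3), netrins (2) and netrin receptors (5). Each of the 57 symbols matched 1 row of the table. The cells were H9, an established human embryonic stem cell (hESC) line, in 4 genotypes: unedited cells with the human element (hHAR123), cells from which the element was deleted on both alleles (HAR123-KO), and cells in which it was replaced by the chimpanzee (cHAR123) or mouse (mHAR123) ortholog. HAR123 is a noncoding enhancer in an intron of SMG6, so no gene count checks its deletion or replacement. Each genotype was sequenced as hESCs and as neuroectoderm, made by 5 days in Noggin (500 ng/ml) and SB431542 (10 µM), blockers of BMP and Activin/Nodal signaling that all neuroectoderm libraries share. There were 3 libraries per genotype and stage, 24 in all. The study names 2 clones for each genotype, and no source used here ties a library to its clone. At least 2 of the 3 libraries of a group therefore share a clone, and p-values measure the spread between these libraries, not between clones. The names cHAR123 and mHAR123 follow the sample labels. For neuroectoderm another source from the study gives them the other way round, so these libraries are called the libraries labelled cHAR123 and mHAR123.

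Axon guidance molecules steer growing axons and migrating cells by attraction and repulsion. Secreted netrins act through DCC and UNC5 receptors, secreted slits through ROBO receptors, secreted semaphorins through neuropilins that pair with plexins, and membrane-bound ephrins through Eph receptor tyrosine kinases. In the early neural tube and in migrating neural crest cells, the same molecules set tissue boundaries and migration routes before axons form.

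Libraries held 21022748 to 35198684 counts. A floor of 3 counts, given for reference and not used to leave genes out, corresponded to 0.0852 to 0.143 CPM (counts per gene scaled to a common library total). Replicates differed by more than counting noise in every pair. In hESCs, 55 of the 57 genes had a mean of at least 1 CPM in every genotype, and in neuroectoderm 53 did (54 in HAR123-KO). Summed over the 57 genes, the level was 2803 to 3093 CPM in the hESC libraries and 4165 to 4723 CPM in the neuroectoderm libraries. Neuroectoderm markers (PAX6, SOX1, OTX2, SIX3, LHX2 and HESX1) summed to 1036 to 1062 CPM in hHAR123 neuroectoderm, and the pluripotency list (POU5F1, NANOG, DPPA4, ZFP42, LIN28A and TDGF1) stood at 1656 to 1755 CPM, most of it LIN28A, with NANOG and TDGF1 near 1 CPM. Endoderm markers summed to at most 0.166 CPM in any neuroectoderm library. In bulk RNA, fewer cells of a type and less RNA per cell cannot be told apart.

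**Figure D1:**
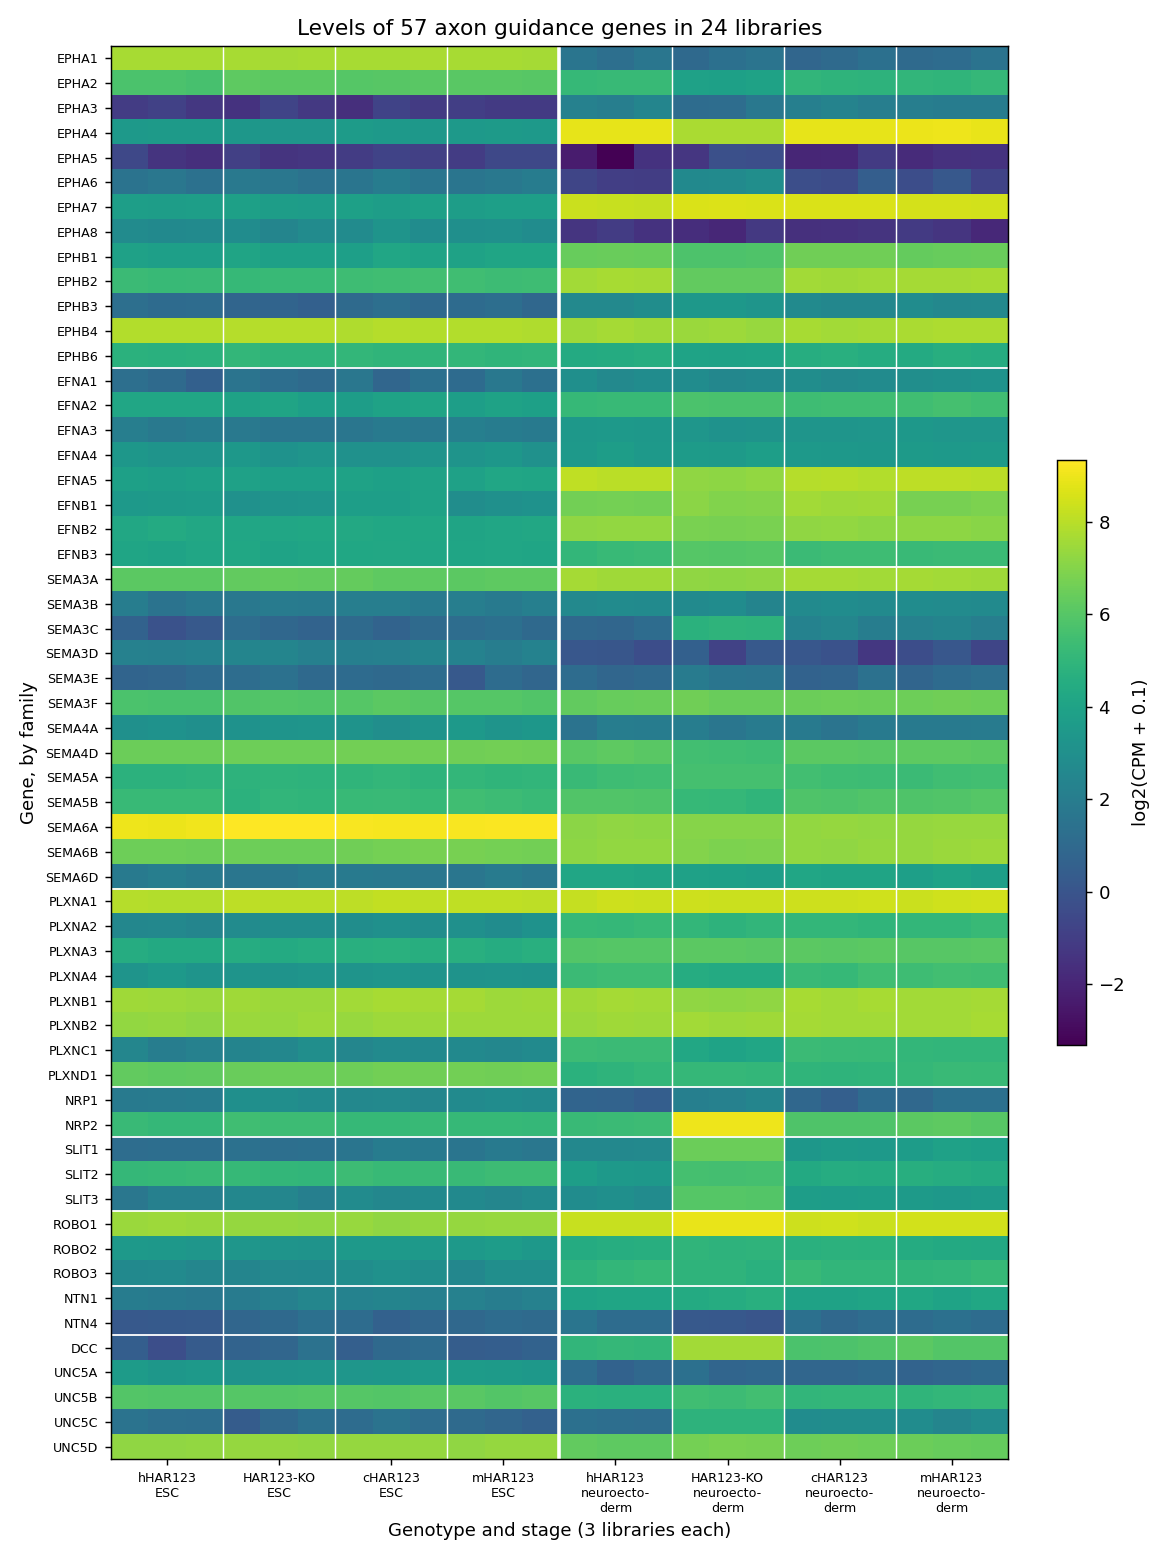
Level of each of the 57 genes (rows, grouped by family) in each of the 24 libraries (columns, 3 per genotype and stage), as log2(CPM + 0.1). The largest contrast in most rows lies between hESCs and neuroectoderm, and NRP2, SLIT1, SLIT3, DCC, UNC5C and SEMA3C form a block that is higher in the 3 HAR123-KO neuroectoderm libraries than in the other 9 neuroectoderm libraries.

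The guidance genes of unedited cells were compared first between hESCs and neuroectoderm. A gene was called up- or down-regulated at an adjusted p under 0.01 (edgeR quasi-likelihood test, Benjamini-Hochberg adjustment over all genes tested) and a log2 fold change beyond 1 in size. In hHAR123 cells, 21 of 56 tested members were up-regulated in neuroectoderm and 12 down-regulated, or 58.9%, where 45.9% of all tested genes were called (24.6% higher and 21.2% lower). The median log2 fold change was 0.50 over the members and 0.05 over all genes tested. By family, 5 of 8 ephrins and 6 of 12 tested Eph receptors were up-regulated, and 3 Eph receptors were down-regulated. Of 8 plexins, 4 were up-regulated and 1 down-regulated, and of 5 netrin receptors, 1 was up-regulated and 3 down-regulated.

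EPHA4, an Eph receptor that binds ephrins of both classes, showed the largest increase among the up-regulated genes. It was 11.1, 11.8 and 12 CPM in the hHAR123 hESC libraries and 468, 466 and 469 CPM in neuroectoderm, a log2 fold change of 5.04 (SE 0.042, adjusted p = 5.56e-47, edgeR). The 3 libraries of a stage lay close together and the stages did not overlap. DCC, the netrin receptor that mediates attraction, went from 1.29, 0.723 and 1.14 CPM to 31.6, 34.7 and 33.7 CPM (log2 fold change 4.69, SE 0.11). EPHA7 went from 13.7, 12.9 and 13.6 CPM to 321, 313 and 301 CPM (log2 fold change 4.24, SE 0.044). Both were far lower in every hESC library than in any neuroectoderm library. The ligand EFNA5, an ephrin held on the membrane by a lipid anchor, was 14.7, 13.6 and 14.7 CPM in hESCs and 279, 265 and 262 CPM in neuroectoderm (log2 fold change 3.94, SE 0.044). EPHA3 completed the 5 largest increases, at 0.379, 0.452 and 0.313 CPM in hESCs and 4.71, 4.22 and 5.29 CPM in neuroectoderm (log2 fold change 3.34, SE 0.22).

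Of the 5 largest decreases, 4 were also in receptors. EPHA1 was 205, 207 and 203 CPM in hHAR123 hESCs and 2.95, 2.36 and 2.99 CPM in neuroectoderm, a fall of 90.9-fold (log2 fold change −6.51, SE 0.062, adjusted p = 3.43e-45, edgeR). EPHA8 was 6.88, 6.23 and 6.56 CPM in hESCs and 0.285, 0.372 and 0.256 CPM in neuroectoderm, where it rested on 6, 9 and 6 counts. Thus an Eph receptor repertoire led by EPHA1 and EPHB4 in hESCs was led by EPHA4, EPHB4, EPHA7 and EPHB2 in neuroectoderm, when levels were taken as RPKM, the CPM divided by exon length in kilobases. EPHA6 fell from 2.68, 3.16 and 2.56 to 0.523, 0.413 and 0.384 CPM (log2 fold change −2.96, SE 0.24). The netrin receptor UNC5A, which mediates repulsion, fell from 12.2, 10.3 and 11.1 to 2.19, 1.49 and 1.84 CPM (log2 fold change −2.91, SE 0.13). The secreted semaphorin SEMA3D fell from 4.58, 4.46 and 4.74 to 0.999, 0.950 and 0.683 CPM (log2 fold change −2.68, SE 0.18). In each of these 3 genes, every neuroectoderm library was below every hESC library.

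Per exon length, the most abundant guidance genes of hHAR123 hESCs were SEMA6A, a transmembrane semaphorin, at 47.7 ± 1.06 RPKM (mean ± SD, n = 3), EPHA1 at 43.6 ± 0.379 RPKM and EPHB4 at 36.5 ± 0.116 RPKM. In hHAR123 neuroectoderm they were EPHA4 at 61.9 ± 0.213 RPKM, EFNA5 at 46.8 ± 1.54 RPKM and SEMA6B at 32.3 ± 1.49 RPKM. Then EFNB1 (30.7 ± 0.651 RPKM), EFNB2 (30.6 ± 0.480 RPKM) and EPHB4 (29.5 ± 0.963 RPKM) followed. From SEMA6B to EPHB4, neighbours in this order differed by less than the sum of their SDs. In HAR123-KO neuroectoderm the order was ROBO1 (44.1 ± 0.152 RPKM), EFNB1 (39.6 ± 2.54 RPKM) and NRP2 (36.9 ± 0.170 RPKM), with EFNB1 the most variable of the 3.

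Deletion of HAR123 was then compared with hHAR123 in neuroectoderm, where the study asks which genes depend on the element. Of 55 tested members, 9 showed higher and 5 lower expression in HAR123-KO, or 25.5%, where 9.45% of all 21362 tested genes were called (4.92% higher and 4.52% lower). The up-regulated genes were all 3 slits, both neuropilins, the netrin receptors DCC and UNC5C, the semaphorin SEMA3C and the Eph receptor EPHA6. The down-regulated genes were the Eph receptors EPHB2, EPHA2 and EPHA4, the plexin PLXNC1 and the netrin NTN4. The median log2 fold change over the members was 0.12, beside 0.00 over all genes tested. By adjusted p alone, 25 members were higher, 17 were lower and 13 did not pass, where 24.2% of all tested genes were higher and 19.9% lower. EPHA5 and EPHA8 had too few counts in neuroectoderm to be tested.

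All 3 slits, secreted ligands that repel axons and migrating cells, were up-regulated. SLIT1 (chr10:96998038-97185959, GRCh38, as are all positions given) was 5.85, 5.91 and 6.02 CPM in hHAR123 neuroectoderm and 91.2, 90.9 and 90.7 CPM in HAR123-KO neuroectoderm, 15.9-fold higher (log2 fold change 3.99, SE 0.062, adjusted p = 1.39e-45, edgeR). SLIT3 (chr5:168661733-169301139) was 7.09, 7.77 and 6.87 CPM and 64.3, 63.1 and 62.8 CPM, 9.05-fold higher (log2 fold change 3.18, SE 0.065, adjusted p = 3.31e-40, edgeR). SLIT2 (chr4:20251905-20620561) was 13.7, 11.6 and 10.5 CPM and 47.8, 47.2 and 49 CPM, 4.19-fold higher (log2 fold change 2.07, SE 0.067, adjusted p = 1.28e-31, edgeR). In all 3 genes the lowest HAR123-KO library was far above the highest hHAR123 library. The summed level of the slits was 23.4 to 26.6 CPM in hHAR123 and 201 to 203 CPM in HAR123-KO neuroectoderm. Of the SLIT1 exon bases, 2.36% are also annotated to the readthrough gene ARHGAP19-SLIT1.

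The 3 slits lie on different chromosomes, SLIT1 on chromosome 10, SLIT2 on chromosome 4 and SLIT3 on chromosome 5. The 250 bases before the annotated start of each are shown because these genes were up-regulated together, beside the same stretch of EPHB2, the gene with the largest decrease. Sequences are from RefSeq (GRCh38.p14), 5′ to 3′ on the strand of the gene, and none overlaps an annotated exon. Capitals mark GCCNNNGGC, a palindromic motif bound by TFAP2 factors.
SLIT1, chr10:97185960-97186209, minus strand: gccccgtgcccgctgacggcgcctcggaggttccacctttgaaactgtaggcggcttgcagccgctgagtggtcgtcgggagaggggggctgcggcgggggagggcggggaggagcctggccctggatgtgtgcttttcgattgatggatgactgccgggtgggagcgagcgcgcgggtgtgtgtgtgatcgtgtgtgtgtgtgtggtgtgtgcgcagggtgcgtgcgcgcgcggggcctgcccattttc
SLIT2, chr4:20251655-20251904, plus strand: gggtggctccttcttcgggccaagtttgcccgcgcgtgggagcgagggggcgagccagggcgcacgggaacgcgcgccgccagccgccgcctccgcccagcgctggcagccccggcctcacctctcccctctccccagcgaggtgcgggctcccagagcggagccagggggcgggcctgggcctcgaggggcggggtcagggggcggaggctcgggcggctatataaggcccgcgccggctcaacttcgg
SLIT3, chr5:169301140-169301389, minus strand: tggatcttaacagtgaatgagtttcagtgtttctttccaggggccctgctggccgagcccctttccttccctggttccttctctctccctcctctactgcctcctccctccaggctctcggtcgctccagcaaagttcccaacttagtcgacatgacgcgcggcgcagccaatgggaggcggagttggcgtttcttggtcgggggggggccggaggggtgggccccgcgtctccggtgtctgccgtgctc
EPHB2, chr1:22710588-22710837, plus strand: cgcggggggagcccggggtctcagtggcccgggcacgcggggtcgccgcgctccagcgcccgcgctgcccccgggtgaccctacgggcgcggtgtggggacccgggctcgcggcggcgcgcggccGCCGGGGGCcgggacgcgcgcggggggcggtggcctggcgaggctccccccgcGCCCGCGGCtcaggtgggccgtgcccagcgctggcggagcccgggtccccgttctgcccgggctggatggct
The motif stood in none of the slit sequences and at 2 places in that of EPHB2. Of the 57 members, 49 had such a sequence. It held the motif in 0 of 8 up-regulated members, 1 of 5 down-regulated members and 12 of 49 members (24.5%), where 19.8% of all 35116 promoters held it. The homeodomain motif TAATTA, which reads the same on both strands as GCCNNNGGC does, stood in 1 of 49 (2.04%) and in 4.35% of all promoters. Median GC content was 67.0% in the up-regulated, 63.2% in the down-regulated and 64.4% in all 49 members, and 58.0% in all promoters. These matches describe letters in a short window only.

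Among the slit receptors no robo was called. ROBO1, the main slit receptor by level, was 314, 311 and 308 CPM in hHAR123 and 488, 489 and 486 CPM in HAR123-KO neuroectoderm, a log2 fold change of 0.70 (SE 0.029) that passed the adjusted p but not the fold threshold. ROBO2 differed by 0.40 on the log2 scale (SE 0.061), and ROBO3, which opposes slit repulsion in axons that cross the midline, by −0.13 (SE 0.065, adjusted p = 0.1, edgeR).

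Of the netrin receptors, DCC and UNC5C were up-regulated. DCC (chr18:52340197-53535903) was 31.6, 34.7 and 33.7 CPM in hHAR123 and 191, 195 and 190.5 CPM in HAR123-KO neuroectoderm, 5.96-fold higher (log2 fold change 2.57, SE 0.041, adjusted p = 5.47e-45, edgeR). UNC5C (chr4:95162504-95549206), whose product turns the response to netrin into repulsion, was 2.47, 2.31 and 2.22 CPM and 28.8, 29.2 and 29.2 CPM, 12.9-fold higher (log2 fold change 3.69, SE 0.097, adjusted p = 1.37e-35, edgeR). The libraries of each group fell within a narrow range and the groups were far apart. UNC5B and UNC5D had smaller differences of 0.76 and 0.57 on the log2 scale that passed the adjusted p, and UNC5A did not pass (0.14, SE 0.21). The ligand NTN1 was 16.4, 17.5 and 17.3 CPM and 21.5, 22.6 and 24.9 CPM (log2 fold change 0.48, SE 0.070), below the fold threshold. The laminin-related netrin NTN4 (chr12:95657807-95791189) was 2.90, 2.11 and 2.14 CPM in hHAR123 and 1.08, 1.04 and 0.899 CPM in HAR123-KO, 2.27-fold lower (log2 fold change −1.18, SE 0.22, adjusted p = 1.11e-05, edgeR). It was the lowest in level of the down-regulated members, with 1 hHAR123 library above the other pair.

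In the semaphorin pathway, the neuropilins, which bind secreted semaphorins, and 1 of their ligands were up-regulated. NRP2 (chr2:205681990-205798133) was 38.3, 39.5 and 41.2 CPM in hHAR123 and 510.5, 512 and 515 CPM in HAR123-KO neuroectoderm, 13.4-fold higher (log2 fold change 3.74, SE 0.037, adjusted p = 3.77e-54, edgeR). Of the 9 up-regulated members it had the highest level in HAR123-KO, in CPM and per exon length. NRP1 (chr10:33177492-33336262) was 1.62, 1.53 and 1.28 CPM and 4.39, 4.66 and 5.35 CPM, 3.38-fold higher (log2 fold change 1.76, SE 0.17, adjusted p = 8.59e-13, edgeR), so it remained low in both groups. SEMA3C (chr7:80742538-80922359), a secreted semaphorin that guides migrating neural crest cells, was 1.81, 1.74 and 2.09 CPM and 27.2, 29.6 and 29.2 CPM, 15.8-fold higher (log2 fold change 3.98, SE 0.10, adjusted p = 1.05e-35, edgeR). None of the other 12 semaphorins was called, and their log2 fold changes ran from −0.76 in SEMA5B to 0.76 in SEMA3E. SEMA3E lies 2440879 bases from SEMA3C on chromosome 7.

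No plexin, the signaling partners of neuropilins, was up-regulated. Of 8 plexins, PLXNC1 (chr12:94148577-94307675) was called, at 40.7, 39.3 and 39 CPM in hHAR123 and 19.5, 16 and 18.1 CPM in HAR123-KO, 2.14-fold lower (log2 fold change −1.10, SE 0.063, adjusted p = 5.00e-21, edgeR). The highest HAR123-KO library was below the lowest hHAR123 library. PLXNA4 was 39.6, 43 and 42.4 CPM and 22.4, 21.5 and 21.1 CPM (log2 fold change −0.89, SE 0.058), just short of the fold threshold. The other 6 plexins had log2 fold changes of −0.32 (PLXNB1) to 0.21 (PLXND1). Exons of other genes on the opposite strand cover 9.88% of the exon bases of PLXNC1, and no source used here states whether strand was used in counting.

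Eph receptors moved in both directions. EPHB2 (chr1:22710839-22921500) was 192, 206 and 196 CPM in hHAR123 and 78.9, 78.1 and 79.7 CPM in HAR123-KO neuroectoderm, 2.42-fold lower (log2 fold change −1.28, SE 0.037, adjusted p = 1.18e-33, edgeR). EPHA4 (chr2:221418027-221574202) was 468, 466 and 469 CPM and 215, 214 and 213 CPM, 2.11-fold lower (log2 fold change −1.08, SE 0.030, adjusted p = 1.15e-34, edgeR). EPHA2 (chr1:16124337-16156069), the third Eph receptor of hESCs per exon length, was 35.5, 36.9 and 36.4 CPM and 15.2, 14.5 and 15.7 CPM, 2.31-fold lower (log2 fold change −1.21, SE 0.063, adjusted p = 1.08e-22, edgeR). Within each of these genes the libraries of a group differed little and the groups did not overlap. EPHA6 (chr3:96814581-97761532) was the single up-regulated Eph receptor, at 0.523, 0.413 and 0.384 CPM and 6.33, 6.66 and 7.64 CPM, 16.1-fold higher (log2 fold change 4.01, SE 0.20, adjusted p = 2.10e-23, edgeR). Its level stayed low per exon length (0.376 ± 0.0373 RPKM in HAR123-KO), and 11% of its exon bases are shared with another annotated gene on the same strand. EPHA7, the second most abundant Eph receptor of hHAR123 neuroectoderm in CPM, was 321, 313 and 301 CPM and 389.8, 412 and 389 CPM (log2 fold change 0.40, SE 0.031), below the fold threshold. EPHA3 (−0.85, SE 0.16) passed the adjusted p alone, and was called at −1.08 without HAR123-KO replicate 3. Summed over the 13 Eph receptors, the level was 1313 to 1342 CPM in hHAR123 and 961 to 989 CPM in HAR123-KO.

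No ephrin was called in HAR123-KO neuroectoderm by edgeR or DESeq2. By adjusted p alone 3 of 8 were higher and 2 lower. EFNB3 was 33.5, 36.3 and 39 CPM and 63.7, 61.4 and 63.8 CPM (log2 fold change 0.84, SE 0.051), and EFNA5 was 279, 265 and 262 CPM and 151, 148 and 156 CPM (log2 fold change −0.77, SE 0.033). These were the largest differences in either direction. EFNB2 (−0.43, SE 0.035) shares 36.4% of its exon bases with a gene on the opposite strand, and EFNA3 shares 43.9% with the readthrough gene EFNA4-EFNA3, so their counts are uncertain.

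**Figure D2:**
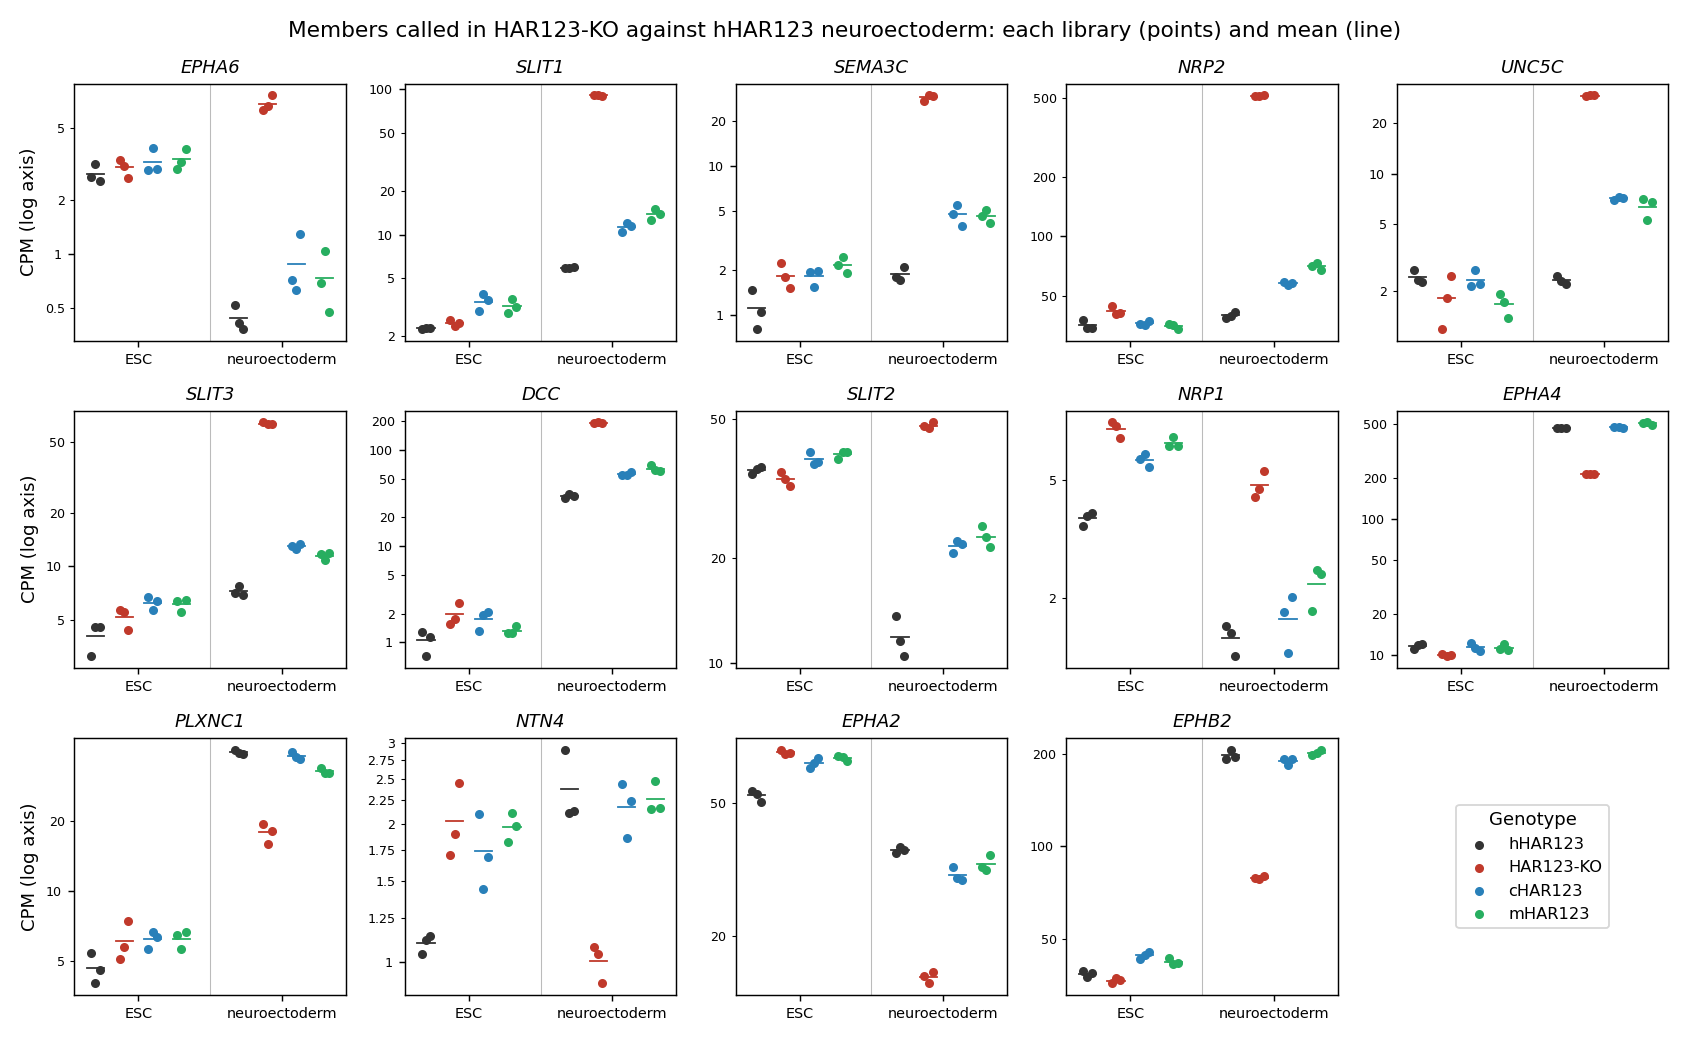
CPM on a log axis of the 14 members called in HAR123-KO against hHAR123 neuroectoderm, with 1 point per library, a line at each mean, and colours for the 4 genotypes at both stages. In each of the 9 up-regulated genes the 3 HAR123-KO neuroectoderm points lie above the other 9 neuroectoderm points, and in each of the 5 down-regulated genes they lie below them, while none of these genes was called between genotypes in hESCs.

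Markers of other cell types moved with these genes. The neural crest list (FOXD3, SOX10, TFAP2A, TFAP2B, PAX3, PAX7 and SNAI2) summed to 111 to 118 CPM in the hHAR123 neuroectoderm libraries and to 1540 to 1555 CPM in those of HAR123-KO, with all 7 markers at 1 CPM or more in both groups. The roof plate and dorsal neural tube list (LMX1A, MSX1, WNT1, WNT3A and GDF7) summed to 37.7 to 40.0 and 288 to 291 CPM. The neuroectoderm list summed to 1036 to 1062 CPM in hHAR123 and 510 to 519 CPM in HAR123-KO. The neuron list (TUBB3, DCX, STMN2, ELAVL3, NEFL and NEUROD1) summed to 102 to 105 and 114 to 117 CPM, but its markers were split. Mean levels in hHAR123 and HAR123-KO rose for DCX (38.48 and 56.79 CPM) and NEFL (17.01 and 20.89 CPM). They fell for TUBB3 (9.95 and 7.09 CPM), STMN2 (21.18 and 14.95 CPM) and NEUROD1 (1.78 and 1.18 CPM). ELAVL3 was level (14.81 and 14.79 CPM). Endothelial markers summed to 10.0 to 10.6 and 22.6 to 25.8 CPM, nearly all of it KDR and TEK, with PECAM1 and CDH5 at 0 to 0.474 CPM in each library. Surface ectoderm markers summed to 0.0476 to 0.0854 CPM in hHAR123 and 1.03 to 1.37 CPM in HAR123-KO. Most of this was GATA3 (means of 0.0719 and 1.11 CPM), with KRT14 at 0. The part of these markers in the changes of guidance genes was not tested.

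Whether the effect of the deletion differs between hESCs and neuroectoderm was tested as an interaction over the 12 libraries of hHAR123 and HAR123-KO. The interaction was called in 14 of 57 members, 10 positive and 4 negative, or 24.6%, where 7.87% of all genes tested were called (3.84% positive and 4.03% negative). With DESeq2, 13 members were called. For UNC5C, the deletion effect was −0.38 in hESCs and 3.69 in neuroectoderm on the log2 scale, and the interaction was 4.05 (SE 0.21, adjusted p = 2.24e-22, edgeR). For EPHA6 it was 3.92 (SE 0.26), for SLIT1 3.89 (SE 0.16), for NRP2 3.52 (SE 0.059) and for SEMA3C 3.29 (SE 0.25). The remaining positive interactions were those of SLIT3, EPHA5, SLIT2, DCC and EPHB3, from 2.87 to 1.26. Negative interactions were found in NTN4 (−2.07, SE 0.30), EPHA2 (−1.62), PLXNC1 (−1.49) and EPHB2 (−1.19).

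The same genes can be read as a difference in what happens on differentiation. In HAR123-KO cells, 27 of 57 members were up-regulated and 11 down-regulated from hESCs to neuroectoderm (66.7%, background 41.1%, with 22% higher and 19.1% lower), with a median of 0.91 against 0.03 over all genes. NRP2, UNC5C and SEMA3C had log2 fold changes of −0.13, −0.35 and 0.47 in hHAR123 cells, none of which was called, and of 3.42, 3.73 and 3.78 in HAR123-KO cells, all of which were called. SLIT2 fell in hHAR123 cells (−1.88, SE 0.068) and was not called in HAR123-KO cells (0.31, SE 0.047). EPHA6 fell in hHAR123 cells (−2.96) and in HAR123-KO cells stood at a log2 fold change of 1.0 (SE 0.13), at the edge of the fold threshold: it was called at 1.05 and 1.02 without HAR123-KO neuroectoderm replicate 1 or 2, and at 1.04 without HAR123-KO hESC replicate 1. DCC rose in both, by 4.69 and 6.37 on the log2 scale. EPHB3 rose in both too, by 1.28 and 2.57, with levels of 6.04, 6.03 and 7.34 CPM in hHAR123 and 10.5, 10.7 and 9.69 CPM in HAR123-KO neuroectoderm. EPHA2 was not called in hHAR123 (−0.83) and fell in HAR123-KO (−2.43). The Eph receptors that changed most in hHAR123 cells, EPHA4 and EPHA1, changed in the same direction in HAR123-KO cells (4.22 and −6.61).

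**Figure D3:**
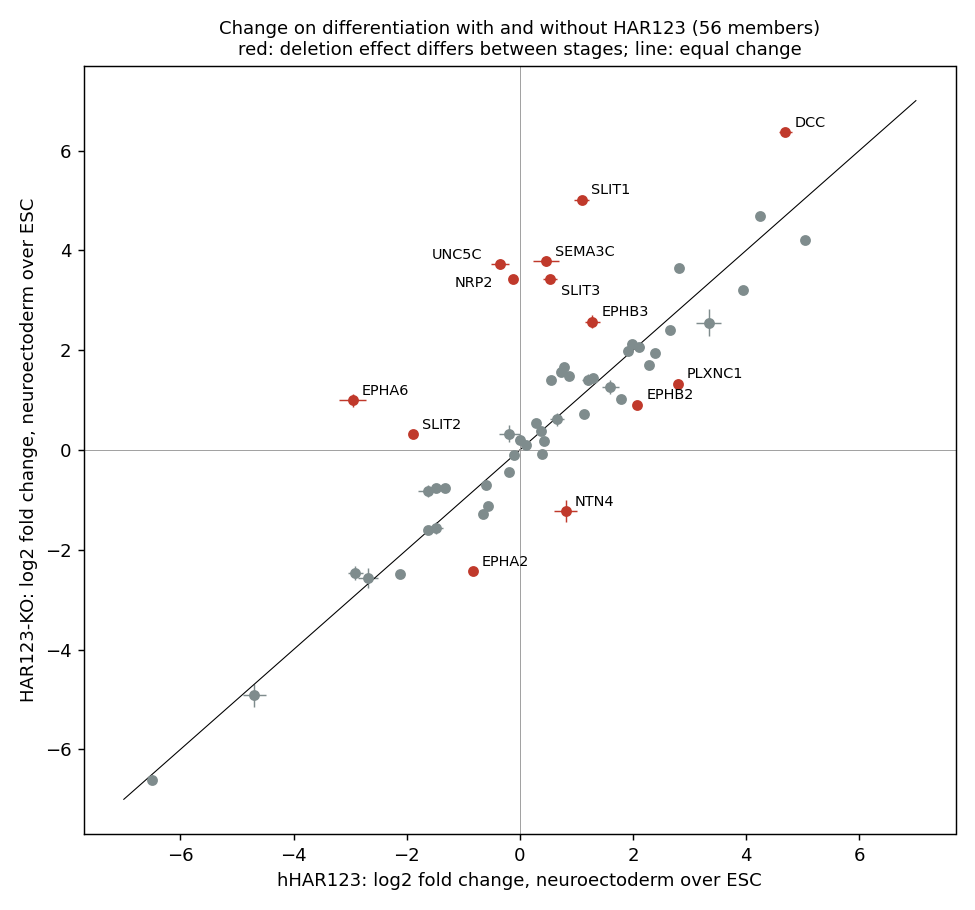
Log2 fold change from hESC to neuroectoderm of 56 members in hHAR123 (x axis) and HAR123-KO cells (y axis), with bars of 1 standard error and a line of equal change. Red, named genes are those with a called interaction: UNC5C, NRP2, SEMA3C, SLIT1, SLIT2, SLIT3, EPHA6, EPHB3 and DCC lie above the line, and EPHA2, NTN4, PLXNC1 and EPHB2 below it.

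EPHA5 was tested in the interaction but not in neuroectoderm alone. It rested on 2, 0 and 6 counts in the hHAR123 and 7, 18 and 18 counts in the HAR123-KO neuroectoderm libraries, or 0.0951, 0 and 0.256 and 0.301, 0.749 and 0.736 CPM. Its interaction was 2.47 (SE 0.76, adjusted p = 0.00668, edgeR), and with DESeq2 the adjusted p was 0.0348, which does not pass the threshold of 0.01. In neuroectoderm alone and without the filter on low counts, the log2 fold change was 2.36 (SE 0.53, adjusted p = 5.85e-05, edgeR). Leaving out hHAR123 neuroectoderm replicate 2 lowered the interaction to 1.88 (adjusted p = 0.0409, edgeR). Over all left-out libraries the interaction ran from 1.88 to 3.78. The call of EPHA5 therefore rested on the method and on which libraries were kept.

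The replacements were compared with hHAR123 in neuroectoderm. In the libraries labelled cHAR123, 2 of 55 tested members were up-regulated and none down-regulated (3.64%, background 0.978%, with 0.522% higher and 0.456% lower). In those labelled mHAR123, 4 of 55 were up-regulated and none down-regulated (7.27%, background 1.03%, with 0.603% higher and 0.429% lower). These comparisons and that of HAR123-KO share the hHAR123 libraries, so their values are given side by side and are not independent. The median log2 fold change over the members was 0.07 for cHAR123 and 0.10 for mHAR123, beside −0.01 over all genes in both. By adjusted p alone, 18 members were higher and 2 lower in cHAR123, and 21 were higher and 1 lower in mHAR123. No share over all genes is given for that level. At an unadjusted p under 0.05 there were 28 and 29 of 55 members, where 29% and 33.8% of all tested genes fell below it.

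UNC5C, at 2.47, 2.31 and 2.22 CPM in hHAR123, was 7.0, 7.31 and 7.22 CPM in the libraries labelled cHAR123 and 7.04, 5.30 and 6.79 CPM in those labelled mHAR123. The log2 fold changes were 1.63 (SE 0.13, adjusted p = 3.63e-13, edgeR) and 1.49 (SE 0.14, adjusted p = 1.88e-10, edgeR), against 3.69 in HAR123-KO. All replacement libraries lay above hHAR123 and below HAR123-KO. SEMA3C was 4.76, 5.49 and 3.99 CPM and 4.62, 5.09 and 4.15 CPM, with log2 fold changes of 1.35 (SE 0.16, adjusted p = 2.55e-08, edgeR) and 1.34 (SE 0.16, adjusted p = 3.22e-08, edgeR). It too lay between hHAR123 and HAR123-KO in every library.

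SLIT1 and SLIT2 were called in the libraries labelled mHAR123. SLIT1 was 12.5, 15.1 and 13.8 CPM there (log2 fold change 1.26, SE 0.098, adjusted p = 4.48e-13, edgeR) and 10.5, 12 and 11.4 CPM in those labelled cHAR123 (0.94, SE 0.098). SLIT2 was 24.7, 23 and 21.5 CPM (1.0, SE 0.079, adjusted p = 8.69e-13, edgeR) and 20.8, 22.5 and 22 CPM (0.89, SE 0.078). SLIT2 sat on the fold threshold: without hHAR123 replicate 2, hHAR123 replicate 3 or mHAR123 replicate 1 its value was 0.99, 0.92 or 0.95 and it was no longer called. Nor was SLIT2 called with library totals (0.96), with a replicate block (0.998) or with DESeq2 size factors (just under 1), so whether 3 or 4 members are called rests on these choices. The difference between the replacements themselves was not called for either gene. It was 0.32 (SE 0.083) for SLIT1, which passed the adjusted p but not the fold threshold, and 0.11 (SE 0.063) for SLIT2.

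DCC, NRP2 and SLIT3, also up-regulated in HAR123-KO, stood above hHAR123 in the replacements without reaching the fold threshold. DCC was 54.8, 55.3 and 59.1 CPM and 69.8, 62.2 and 61 CPM in the libraries labelled cHAR123 and mHAR123, with log2 fold changes of 0.77 (SE 0.051) and 0.99 (SE 0.054). Without hHAR123 replicate 2, mHAR123 replicate 2 or mHAR123 replicate 3 the second value was 1.03, 1.01 or 1.02 and DCC was called. NRP2 was 58.5, 56.8 and 57.6 CPM and 70.8, 73.3 and 67.3 CPM (0.55 and 0.87), and SLIT3 was 13, 12.5 and 13.3 CPM and 11.7, 10.8 and 11.8 CPM (0.85 and 0.70). These 3 genes passed the adjusted p in both comparisons. EPHA6 (1.01, SE 0.36, adjusted p = 0.0443 for cHAR123 and 0.79, SE 0.37, adjusted p = 0.123 for mHAR123, edgeR) and NRP1 (0.23 and 0.64) passed it in neither.

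The members down-regulated in HAR123-KO stood near hHAR123 in the replacements. EPHA4 was 472, 475 and 469 CPM and 509, 511 and 491 CPM in the libraries labelled cHAR123 and mHAR123 (0.03 and 0.15 on the log2 scale). EPHB2 was 192, 184 and 192 CPM and 197, 202 and 206 CPM (intervals of the difference, 95%: −0.11 to 0.02 and −0.00311 to 0.14). EPHA2, PLXNC1 and NTN4 differed from hHAR123 by −0.23, −0.04 and −0.10 in cHAR123 and by −0.10, −0.23 and −0.02 in mHAR123. Of these, EPHA2 in cHAR123 and EPHA4 and PLXNC1 in mHAR123 passed the adjusted p. In the same libraries the neural crest list summed to 262 to 274 CPM (cHAR123) and 297 to 300 CPM (mHAR123), the roof plate list to 69.9 to 72.0 and 57 to 59.4 CPM, and the neuroectoderm list to 1091 to 1120 and 979 to 1004 CPM. Their part in these differences was not tested.

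**Figure D4:**
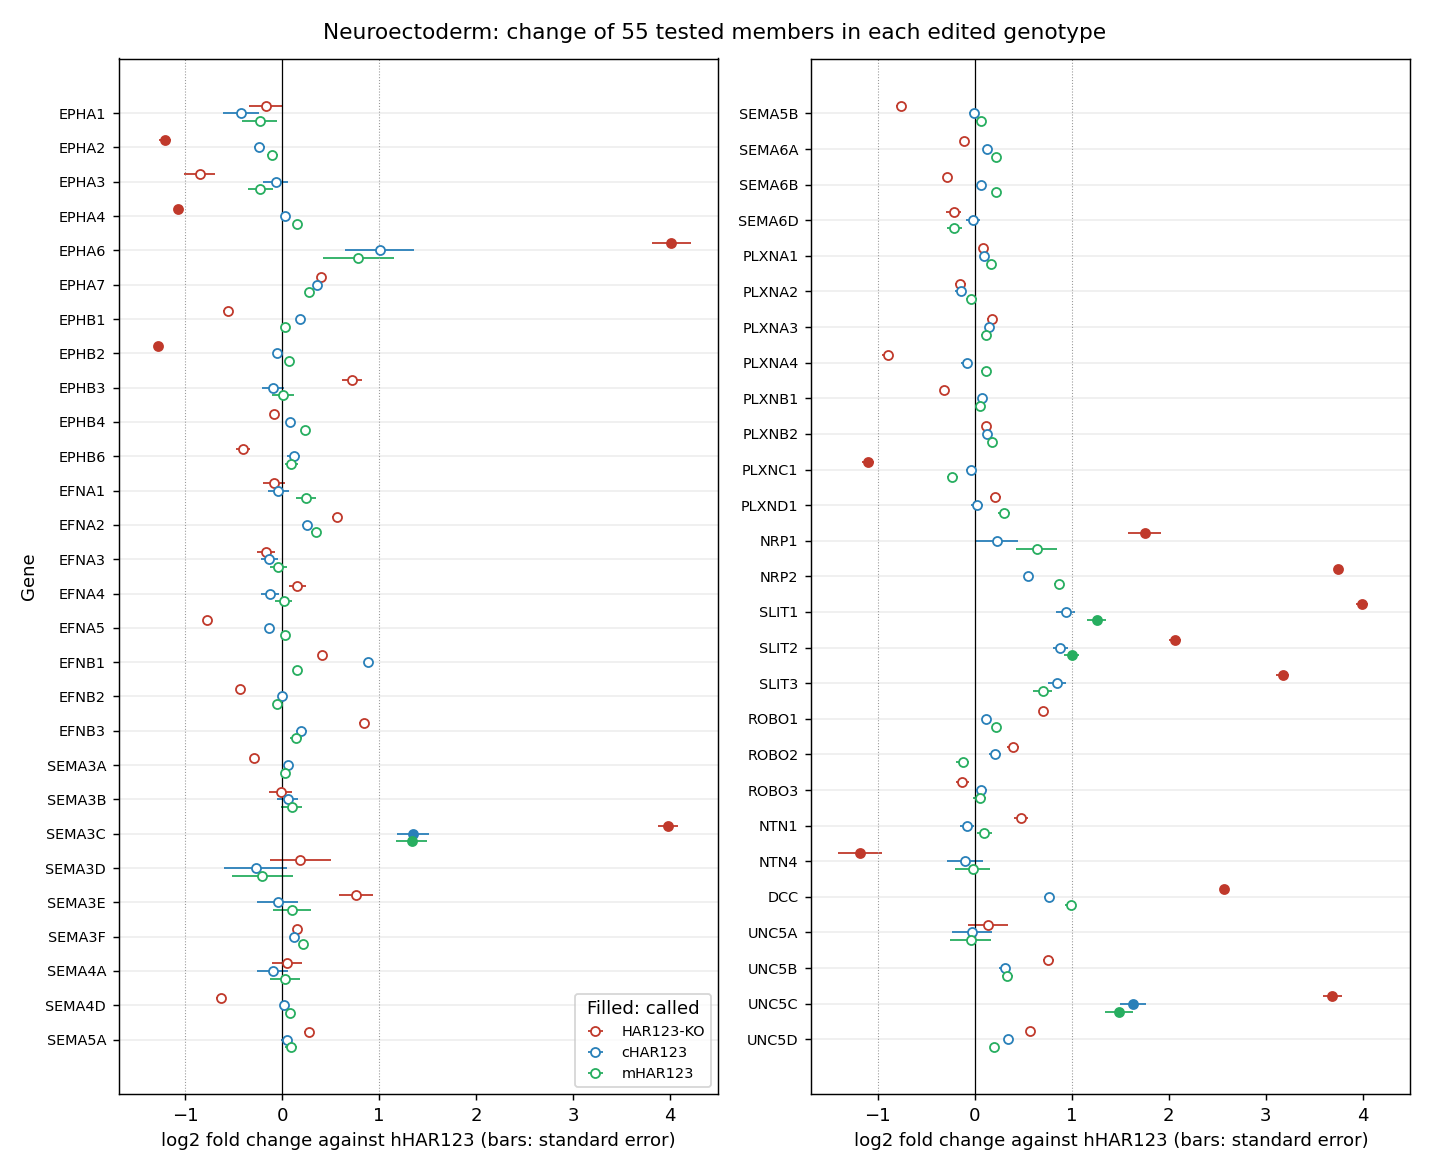
Log2 fold change against hHAR123 neuroectoderm of the 55 tested members in HAR123-KO (red), cHAR123 (blue) and mHAR123 (green), with bars of 1 standard error, filled points for called genes and dotted lines at −1 and 1. Most open points lie near 0. For UNC5C, SEMA3C, NRP2, DCC and the 3 slits the replacements lie between 0 and the HAR123-KO value.

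Against HAR123-KO, each replacement differed in 14 of 55 tested members, 5 higher and 9 lower (25.5%). The background was 7.61% for cHAR123, with 3.7% higher and 3.91% lower, and 7.33% for mHAR123, with 3.55% higher and 3.78% lower. Both comparisons share the HAR123-KO libraries with each other and with the comparison of HAR123-KO and hHAR123 above. Overlap between their called genes is therefore not independent. The 9 lower genes were those up-regulated in HAR123-KO, with log2 fold changes in the libraries labelled cHAR123 from −3.16 (NRP2, SE 0.026) to −1.15 (SLIT2, SE 0.051), and in those labelled mHAR123 from −3.20 (EPHA6, SE 0.18) to −1.04 (SLIT2, SE 0.053). The 5 higher genes were EPHA2, EPHA4, EPHB2 and NTN4 in both, with PLXNC1 (1.08, SE 0.059) in cHAR123 and PLXNA4 (1.03, SE 0.055) in mHAR123. EPHB2 was 1.25 and 1.37 and EPHA4 1.13 and 1.25 above HAR123-KO on the log2 scale. EPHA2 in cHAR123 sat on the fold threshold (1.0, SE 0.062) and was not called without HAR123-KO replicate 2 (0.97), without cHAR123 replicate 1 (0.96), with all libraries in 1 fit (0.98) or without the filter on low counts (just under 1). SLIT2 and NRP1 in mHAR123 were not called without mHAR123 replicate 3 (−0.99) and replicate 1 (−0.94).

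Between the replacements themselves, 0 of 55 members were called by edgeR (background 0.261%, with 0.104% higher and 0.156% lower) and 0 by DESeq2. At an unadjusted p under 0.05 there were 25 of 55, a larger share than the 19.1% of all tested genes below that level. By adjusted p alone, 10 members were higher and 5 lower in the libraries labelled mHAR123, and no share over all genes is given for that level. The largest difference was in EFNB1, a transmembrane ephrin, at 189.5, 180.3 and 188 CPM in the libraries labelled cHAR123 and 107, 108 and 115 CPM in those labelled mHAR123 (log2 fold change of mHAR123 over cHAR123 −0.73, SE 0.032, adjusted p = 2.73e-23, edgeR). It was 99.8, 104 and 101 CPM in hHAR123 and 140.1, 124 and 129 CPM in HAR123-KO, so every library labelled cHAR123 was above all others at this stage. In hESCs it was 11.1, 11.8 and 12.3 CPM in hHAR123, 8.44, 9.28 and 9.51 CPM in HAR123-KO, 13.6, 13.8 and 15.5 CPM in cHAR123 and 7.22, 8.11 and 8.71 CPM in mHAR123, so the libraries labelled cHAR123 were the highest there too. EFNB1 was singled out after its values were seen.

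The interaction with stage was tested for each replacement in the same way. UNC5C was the single member with a called interaction in each, as labelled, 1.72 (SE 0.20, adjusted p = 1.17e-08, edgeR) in cHAR123 and 2.07 (SE 0.22, adjusted p = 7.50e-10, edgeR) in mHAR123, or 1.75% of members in each, with backgrounds of 0.797% (0.24% higher and 0.557% lower) and 0.967% (0.304% higher and 0.663% lower). Were the neuroectoderm names exchanged, each of these interactions would set the neuroectoderm of 1 ortholog against the hESCs of the other. Without hHAR123 neuroectoderm replicate 1, SLIT2 was called as well in mHAR123, at 1.01.

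In hESCs, no member was called in any genotype. HAR123-KO against hHAR123 gave 0 of 56 by edgeR (0 by DESeq2, background 1.18%, with 0.96% higher and 0.221% lower), cHAR123 gave 0 of 57 (0 by DESeq2, background 0.85%, with 0.626% and 0.225%) and mHAR123 gave 0 of 57 (0 by DESeq2, background 1.23%, with 1.03% and 0.199%). At an unadjusted p under 0.05 there were 31 of 56, 28 of 57 and 34 of 57 members. These are larger shares than the 29.7%, 36.9% and 38.5% of all tested genes below that level. By adjusted p alone, 11 members were higher and 4 lower in HAR123-KO (background 7.06% and 5.29%), 15 and 2 in cHAR123 (7.72% and 8.6%), and 14 and 4 in mHAR123 (9.02% and 10.2%), all by less than the fold threshold. The median log2 fold changes of the members were 0.04, 0.12 and 0.11.

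The 4 members with the largest differences between HAR123-KO and hHAR123 hESCs, NRP1, DCC, NTN4 and SEMA3C, were all called in neuroectoderm. There, 25.5% of tested members and 9.45% of all tested genes were called. These 4 were picked by their values, and a link between the stages was not tested. NRP1, DCC and SEMA3C were higher in HAR123-KO at both stages, while NTN4 was higher in hESCs and lower in neuroectoderm. NRP1 was 3.50, 3.79 and 3.86 CPM in hHAR123 hESCs and 7.80, 7.58 and 6.91 CPM in HAR123-KO hESCs (log2 fold change 0.97, SE 0.10, adjusted p = 1.15e-09, edgeR). It was 5.86, 6.12 and 5.55 CPM in cHAR123 and 6.52, 6.95 and 6.49 CPM in mHAR123, so all 9 edited libraries were above the 3 unedited ones. DCC was 1.29, 0.723 and 1.14 CPM in hHAR123 and 1.54, 1.73 and 2.61 CPM in HAR123-KO (0.91, SE 0.22, adjusted p = 0.00222, edgeR), and NTN4 was 1.04, 1.11 and 1.14 and 1.71, 1.90 and 2.45 CPM (0.88, SE 0.20). SEMA3C was 1.48, 0.813 and 1.05 CPM in hHAR123 and 2.23, 1.80 and 1.51 CPM in HAR123-KO (0.69, SE 0.22, adjusted p = 0.0192, edgeR), and 2.17, 2.46 and 1.91 CPM in mHAR123 (0.93, SE 0.20, adjusted p = 2.79e-04, edgeR). Single libraries decide whether these pass the fold threshold. DCC was called in HAR123-KO at 1.08 without hHAR123 replicate 1, 1.04 without HAR123-KO replicate 1 and 1.01 without HAR123-KO replicate 2, and NRP1 at 1.01 without HAR123-KO replicate 3. SEMA3C was called in mHAR123 at 1.18 without hHAR123 replicate 1 and 1.02 without mHAR123 replicate 3.

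Guidance genes outside the 57 members were read from a pair of lists, other ligands and receptors (26 genes) and intracellular transducers and processing enzymes (44 genes). In HAR123-KO against hHAR123 neuroectoderm, 6 of 24 tested other ligands and receptors were up-regulated and 2 down-regulated (33.3%), and 2 of 44 transducers were up-regulated (4.55%). Of all tested genes 9.45% were called, so the share of the transducers was below the background. FLRT1 and FLRT3, membrane proteins that bind UNC5 receptors, were 9.50 ± 0.167 and 64.8 ± 1.93 CPM in hHAR123 and 26.3 ± 1.16 and 153.6 ± 6.88 CPM in HAR123-KO (log2 fold changes 1.52 and 1.30, SE 0.074 and 0.039). GAP43, a growth cone protein, was 10.1 ± 0.668 and 50.1 ± 2.55 CPM (2.37, SE 0.066). RGMA, a repulsive ligand of neogenin, was 323 ± 12.4 and 96.1 ± 3.64 CPM (−1.70, SE 0.036), and NTN3 was 4.32 ± 0.248 and 2.06 ± 0.388 CPM (−1.01, SE 0.16). SEMA7A, the ligand of the down-regulated receptor PLXNC1, was 12.1 ± 1.03 CPM in hHAR123 and 23.7 ± 0.574 CPM in HAR123-KO (1.01, SE 0.074). In the replacements no gene of either list was called by edgeR or DESeq2. At an unadjusted p under 0.05 there were 13 of 25 and 24 of 44 tested genes of the lists in cHAR123 (background 29%). In mHAR123 there were 14 of 24 and 22 of 44 (background 33.8%), so each share was above its background. In HAR123-KO hESCs 1 gene of these lists was called, NTNG1, at 1.20 ± 0.276 and 3.05 ± 0.541 CPM (1.32, SE 0.18).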

How the data were processed

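RNA was depleted of ribosomal RNA by the authors, made into directional libraries and sequenced as paired-end reads. Per the labels and the study's methods, reads were aligned to GRCh38 with STAR 2.5.2b and counted over the exons of Ensembl genes with featureCounts. These counts were deposited as whole numbers, unnormalized by the authors. Whether strand was used is not given in the sources used here. An entry broken over 3 lines of the table was left out, none of it a member.

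Counts were tested with edgeR 4.0.16 in R 4.3.3 (filterByExpr, TMM, quasi-likelihood F test), each pair of groups fitted alone over the whole table and Benjamini-Hochberg adjusted over all genes tested, with the study's thresholds of adjusted p under 0.01 and absolute log2 fold change over 1. Interactions of genotype and stage used 12 libraries. CPM and RPKM used library totals and exon lengths. The scripts were tested on simulated data. Total counts ranged from 23334732 to 35198684 in hESCs and from 21022748 to 25978892 in neuroectoderm. Intervals cover the spread between libraries. The floor of 3 counts was for reference only, and filterByExpr decided which genes were tested. Groups were taken from the sample titles. In replicate pairs, chi-square divided by its degrees of freedom was 1.41 to 5.53.

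The members and gene lists were chosen with earlier results of these data known. Values in every library are given for members called between genotypes, and for the 5 largest increases and 5 largest decreases on differentiation, with a mean of at least 1 CPM in either group. From the other guidance genes called in HAR123-KO neuroectoderm, the 3 largest increases and the only 2 decreases are named, by the same minimum. Other genes named for contrast, such as ROBO1, EFNB3, PLXNA4, EPHA7, SEMA7A and NTNG1, were picked after their values were seen. Alternatives were DESeq2 1.42.0, DESeq2 size factors, library totals without TMM, no filter on low counts, all libraries in 1 fit, a replicate block, an adjusted p under 0.05, and leaving out each library. Promoters and starts were read from RefSeq.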

Additional observations from a re-analysis of the deposited data

Results flagged for a closer look

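The results below stand apart because the effect of a genotype differed between hESCs and neuroectoderm by an interaction test (edgeR quasi-likelihood, adjusted p under 0.01 over all genes and a size over 1 on the log2 scale). For deletion of HAR123 the interaction was 4.05 in UNC5C, 3.92 in EPHA6, 3.89 in SLIT1, 3.52 in NRP2, 3.29 in SEMA3C, 2.87 in SLIT3, 2.47 in EPHA5, 2.17 in SLIT2, 1.65 in DCC and 1.26 in EPHB3. It was −2.07 in NTN4, −1.62 in EPHA2, −1.49 in PLXNC1 and −1.19 in EPHB2. For the replacements, as labelled, it was 1.72 (cHAR123) and 2.07 (mHAR123) in UNC5C. NTN4 and EPHA2 differed in opposite directions at the 2 stages: HAR123-KO was above hHAR123 in hESCs (0.88 and 0.41) and below it in neuroectoderm (−1.18 and −1.21). The mean level of PLXNC1 went the same way. In EPHB3, UNC5C, SLIT2 and EPHA5 the mean of HAR123-KO was below that of hHAR123 in hESCs and above it in neuroectoderm. The hESC differences of EPHB3, UNC5C and SLIT2 did not pass the adjusted p. EPHB3 was not called within either stage. EPHA5 was not tested in neuroectoderm alone, where without the filter on low counts it was called at 2.36. The settings in which its interaction was not called included DESeq2 and leaving out hHAR123 neuroectoderm replicate 2.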

How the results depend on the processing

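Of 200 counts of called members under alternatives, 193 stayed within 1.5 times the reported count, and the other 7 arose on leaving out a library. Leaving out each library in turn, the count of called members ranged from 0 to 1 for HAR123-KO and for mHAR123 against hHAR123 in hESCs, and from 1 to 2 for the interaction of mHAR123 with stage. Of 1058 values of named genes under alternatives, 1038 kept their direction and their side of the threshold, 20 fell below it and none reversed. The 20 were SLIT2 in mHAR123 against hHAR123 neuroectoderm (just under 1 with DESeq2 size factors, 0.96 with library totals), EPHA2 in cHAR123 against HAR123-KO (just under 1 without the low-count filter, 0.98 with all libraries in 1 fit, and 0.96 to 1.03 on leaving out libraries), SLIT2 and NRP1 in mHAR123 against HAR123-KO (−0.99 and −0.94 without mHAR123 replicate 3 and replicate 1), and the interaction of EPHA5 (1.88 to 3.78 on leaving out libraries). Library totals without TMM moved the median of all genes to 0.34 in hHAR123 and 0.23 in HAR123-KO from hESC to neuroectoderm, and to −0.10 in the interaction of mHAR123 with stage, and called 25 members up and 12 down in hHAR123. Replicate numbers did not pair the libraries: in 0 of 19 pairs of groups did every same-numbered correlation exceed 0.1 (range −0.0232 to 0.0401), and 12 of 24 libraries correlated best with their own number. With a replicate block, 73 of 74 values of named genes kept their side of the threshold, SLIT2 in mHAR123 falling to 0.998, and 33 members were called in hHAR123 on differentiation and 14 in HAR123-KO neuroectoderm. Depth limits EPHA5 and EPHA8, at 0 to 18 counts in the hHAR123 and HAR123-KO neuroectoderm libraries.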
